A study of Mus musculus with 15 samples.

Results

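PU.1 binding sites with a called peak in control macrophages, none after PU.1 knockdown and none on chromatin assembled in vitro are described here. They are 5461 of 53107 merged regions and of 21680 control regions, which are regions with a peak in both control libraries. The members were chosen by measured peak calls: a peak in both control lists, none in either shPU.1 list, and no overlap with a peak of the in vitro list. Peaks were merged into regions, and overlaps counted, from 1 shared bp upward.

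All cells were C57BL/6 bone marrow-derived macrophages on day 7 of differentiation. Those of the control and knockdown libraries were infected with a doxycycline-inducible retrovirus. The control group carried the vector labelled empty, which holds an sh-Renilla hairpin, and the other group carried the shPU.1 hairpin. Both groups were selected with puromycin (3 µg/ml) and, per the labels, induced for 48 hours with doxycycline (0.5 µg/ml). Each group had 2 libraries of chromatin immunoprecipitation (ChIP) with an in-house anti-PU.1 antibody, 1 hairpin was used, and nothing says whether replicates came from separate mice. For the in vitro list, macrophage DNA was assembled with recombinant histones, without retrovirus, and incubated with nuclear extract of macrophages. The extract had been depleted with normal IgG or, as the control, with the PU.1 antibody, and there was 1 library of each.

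PU.1 is an ETS-family transcription factor that binds purine-rich DNA with a GGAA core and is needed for macrophage development. In macrophages it occupies many enhancers and promoters, often close to sites of partner factors, and at many enhancers it acts before signal-dependent factors. ChIP with an antibody to the factor enriches the DNA it was bound to, and a peak is a stretch where such DNA is enriched over a control.

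The lists differed before any comparison of sites. The control lists held 30026 and 36759 peaks, the shPU.1 lists 15122 and 27733, and the in vitro list 57512. Median widths were 435 and 892 bp in control replicates 1 and 2 and 448 and 1076 bp in shPU.1 replicates 1 and 2, so width followed the replicate number. The first shPU.1 library thus gave the fewest peaks. Read depth is unknown for every list. In a bulk assay, fewer cells with the factor bound and less factor bound per cell cannot be told apart.

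Members made up 25.2% of control regions (exact 95% interval 24.6 to 25.8). Over all control regions, 29.1% had no peak in either shPU.1 list and 72.4% had no in vitro peak, and both conditions are part of the rule. Of the 6301 lost regions, 86.7% (85.8 to 87.5) were members, and the other 840 held an in vitro peak. Without shPU.1 replicate 1 the member share was 28.1% (6092 regions). Without shPU.1 replicate 2 it was 45.7% (10044 regions), so membership rested more on the longer shPU.1 list than on the shorter one. The intervals here and below cover the counting of regions within these libraries only, since regions are not replicates.

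Members, like lost regions with an in vitro peak, were mostly weak peaks in both control lists. The peak score, by convention 10 times the −log10 p-value of the peak, had a median of 90.0 in control replicate 1 (quartiles 66.5 and 133.2). In control replicate 2 the median was 105.6 (72.2 and 165.4). Over all control regions the medians were 115.8 and 190.9. In regions kept in both shPU.1 lists and likewise without an in vitro peak (5246 regions), the medians were 170.8 and 307.7. Lost regions with an in vitro peak had medians of 74.3 and 113.9. The lowest member score was 50.05 in each control list, next to the lowest score of 50 in either list, and the highest were 922 and 902.

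The score distributions of members and kept regions overlapped. A rank was given to each region as the mean of its score percentiles in the control lists, with 100 as the highest. The median rank of members was 43.3, against 41.2 in lost regions with an in vitro peak and 77.5 in kept regions without one. Of the members, 430 (7.87%) ranked above the median of those kept regions, and 546 of those kept regions (10.4%) ranked below the median member. A score of at least 100 in both control lists was reached by 1630 members, at least 200 by 318, at least 300 by 68 and at least 500 by 5. These were 14.4%, 6.56%, 2.71% and 0.587% of the control regions above the same scores.

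**Figure D1:**
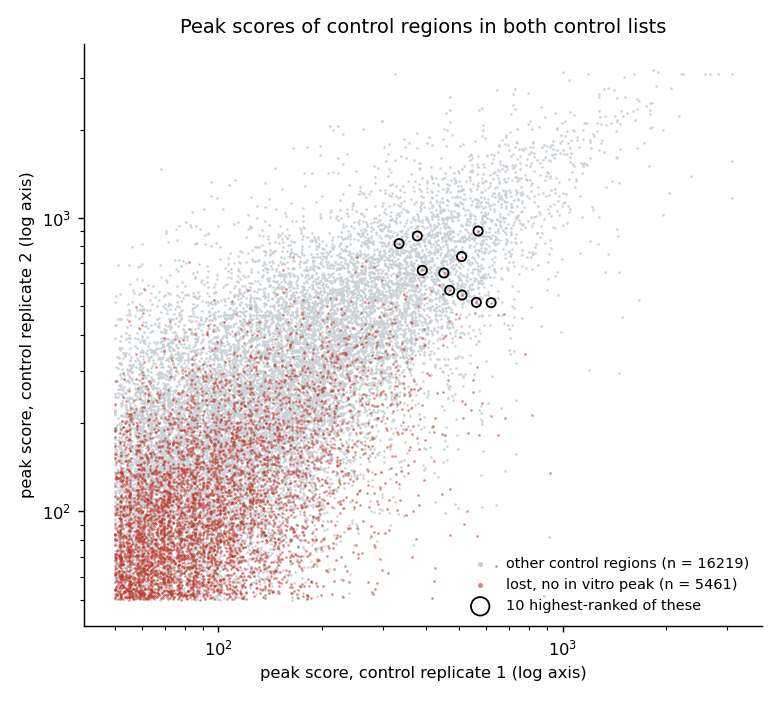
Peak score of each control region in control replicate 1 (x axis) and control replicate 2 (y axis), both on log axes without a unit. Red points are the 5461 regions lost and without an in vitro peak, grey points the other 16219 control regions, and circles the 10 highest-ranked members; the red points crowd the low corner and none exceeds 922 on either axis.

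The share of members was lower in each higher decile of rank. In the lowest decile of rank, 54.7% of control regions were members (1186 of 2168). The share was 26.5% in the fifth decile, 16.6% in the seventh and 1.34% in the highest (29 regions). In all, 76.0% of members lay in the lower 5 deciles. Both control scores come from lists that the rule used, so this is a description of the choice. Weak control sites lie close to the lowest score of the control lists. Members have no score in the shPU.1 or in vitro lists, and the part of the score threshold in the absence of a shPU.1 peak was not tested.

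The absence of an in vitro peak was common among lost regions of every rank. Of lost regions, 85.4% lacked an in vitro peak in the lowest decile, 89.2% in the sixth and 96.1% in the ninth (149 of 155). In the highest decile the share was 78.4%, of only 37 lost regions. Among kept regions the share without an in vitro peak ran the other way, from 71.6% in the lowest decile to 59.3% in the ninth and 52.1% in the highest. The distance between the shares of lost and kept regions was therefore larger in the ninth decile than in the lowest.

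**Figure D2:**
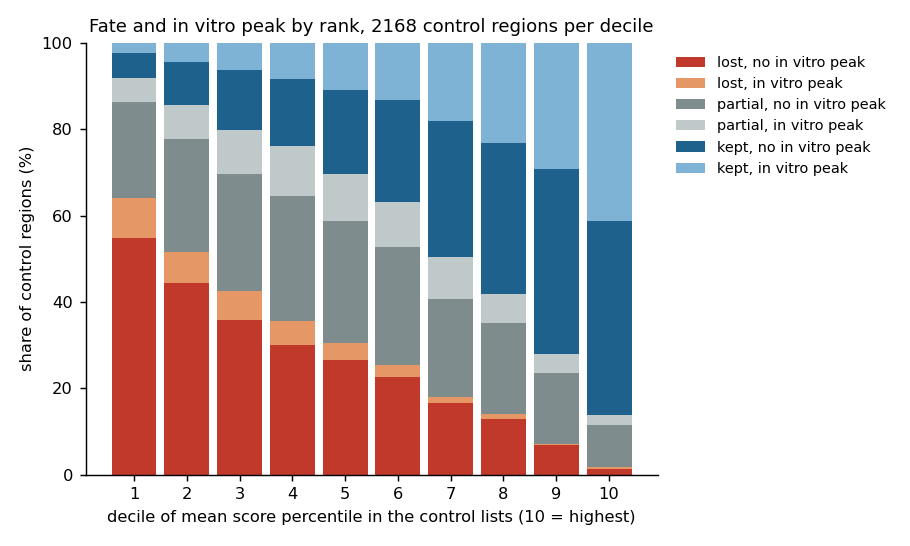
Share of control regions (y axis, %) by fate under the hairpin and by in vitro peak in each decile of rank (x axis, 10 the highest), 2168 regions per bar; partial means a peak in 1 of the 2 shPU.1 lists. The red part, regions lost without an in vitro peak, shrinks from 54.7% to 1.34%, while the pale orange part, lost with an in vitro peak, never exceeds 9.36%.

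The 10 members with the highest rank are strong control sites, chosen by control rank and not by their distance from peaks of the other lists. Coordinates are in mouse build mm9 and are counted from 1. The highest-ranked member lay at chr11:116180077-116180959, with scores of 568 and 902 in control replicates 1 and 2. Its nearest shPU.1 peak was 1161 bp away and its nearest in vitro peak 18027 bp away. The next was chr13:63065820-63066601, with scores of 509 and 738. Here the nearest shPU.1 peak was 12201 bp away, while an in vitro peak lay at 2200 bp.

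A pair among the 10 differed from the rest in width. The region chr8:87184745-87189613 scored 378 and 868, and its control peaks spanned 3966 and 4869 bp. The region chr3:51363441-51365946 scored 452 and 649, with control peaks of 1929 and 2460 bp. A shPU.1 peak lay 3668 bp from the first of these and 1338 bp from the second. Both are several times wider than the median member peak of 474 bp in control replicate 1 and 960 bp in control replicate 2.

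Another pair had the higher score in control replicate 1. The region chr9:55056236-55057633 scored 620 and 514, and the nearest shPU.1 peak was 31713 bp away. The region chr10:79229617-79230642 scored 562 and 516, with the nearest shPU.1 peak at 66774 bp and the nearest in vitro peak at 78902 bp. It was the member of the 10 farthest from both kinds of peak. In the other 8 the raw score was higher in control replicate 2, but raw scores ran higher in that list in general. Over all control regions the medians were 115.8 and 190.9 in control replicates 1 and 2. By percentile within each list the order turned around in some of the 8, such as chr18:73731246-73732624 (97.0 and 92.1). It held in others, such as chr8:127044300-127045110 (92.2 and 96.5).

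The other 4 lay on chromosomes 18, 10, 4 and 8. The region chr18:73731246-73732624 scored 510 and 546 and had another member 237 bp away, with the nearest shPU.1 peak at 28780 bp. The region chr10:80138672-80139716 scored 470 and 567, and a shPU.1 peak lay only 363 bp from it, with a kept region at 475 bp. The region chr4:131977869-131978977 scored 391 and 663, and its nearest shPU.1 peak was 38770 bp away. The region chr8:127044300-127045110 scored 335 and 818, with a shPU.1 peak at 3259 bp. Of the 10, 5 had a shPU.1 peak within 10 kb, 3 had an in vitro peak within 10 kb and 1 had a kept region within 10 kb.

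The 5 members of lowest rank stood at the limit of detection in both control lists. They were chr9:14555502-14556407, chrX:11656416-11657204, chr19:42220551-42221190, chr3:96081898-96082809 and chr19:5991957-5992567. Their scores ran from 50.2 to 51.7 in control replicate 1 and from 50.5 to 52.3 in control replicate 2. The first 2 had another member within 56 bp and 203 bp.

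The borders of the rule were narrow at a few sites. The member nearest to a shPU.1 peak, chr12:76696785-76698061, was 2 bp from it and scored 169 and 195 in the control lists. The member nearest to an in vitro peak, chr12:87165402-87166319, was 5 bp from it and scored 96.2 and 132. Just outside the rule, the control peaks within the merged region chr1:89161134-89162723 (scores 59.6 and 64.4) overlapped a peak of shPU.1 replicate 2 by 30 bp. Likewise, chr2:13707615-13708174 (69.4 and 64.4) overlapped an in vitro peak by 12 bp. A gap of at most 100 bp to a shPU.1 peak was found for 41 members and to an in vitro peak for 19.

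The rule uses both replicate numbers, and its calls can be split by number: regions chosen with the lists of one number were looked up in the lists of the other. These shares describe how the rule's own calls combine and, with 1 in vitro list on both sides, are no independent check of the members. Regions of control replicate 1 without a peak in shPU.1 replicate 1 and without an in vitro peak numbered 15331. Of these, 9818 (64.0%) had a peak in control replicate 2, and of the 9818, 55.6% (54.6 to 56.6) had none in shPU.1 replicate 2. The share was 34.3% (32.4 to 36.2) where the region held an in vitro peak. It was 10.7% (9.93 to 11.5) where shPU.1 replicate 1 did have a peak and there was no in vitro peak. The median score in control replicate 1 was 80.9 over the 15331 regions and 158.6 over those chosen with a shPU.1 replicate 1 peak instead. It was 82.4 over the 2933 chosen with an in vitro peak. These medians include regions without a control replicate 2 peak, which the shares of lost regions leave out. Among regions lost in both numbers, the medians in control replicate 1 were 90.0 in members and 74.3 in those with an in vitro peak. Score thus differed between the sets, and its part in the shares was not tested.

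In the reverse direction the shares with and without an in vitro peak lay close together. Regions of control replicate 2 without a shPU.1 replicate 2 peak or in vitro peak numbered 13255, of which 45.9% had a peak in control replicate 1. Of those, 89.7% (88.9 to 90.4) had no peak in shPU.1 replicate 1, against 87.5% (85.2 to 89.5) with an in vitro peak, and the intervals overlap. Where shPU.1 replicate 2 had a peak, 45.4% (44.4 to 46.4) had none in shPU.1 replicate 1. Absence from that library, which has the fewest peaks, was common in each of these sets.

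Whether the other control library had a peak at all depended on the direction too. For sets chosen in control replicate 1 without a shPU.1 replicate 1 peak, 64.0% (63.3 to 64.8) without and 83.4% (82.0 to 84.8) with an in vitro peak had one in control replicate 2. For sets chosen in control replicate 2, these shares were 45.9% (45.1 to 46.8) and 26.6% (25.2 to 28.1) in control replicate 1. Regions without an in vitro peak thus had the lower share in the first direction and the higher share in the second.

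The scores of members leaned toward control replicate 1. The percentile in control replicate 1 exceeded that in control replicate 2 in 55.2% of members. The share was 36.8% of lost regions with an in vitro peak, 39.2% of kept regions without one and 41.6% of all control regions. The median difference, replicate 1 minus replicate 2, was 2.85 percentile points in members, -8.72 in lost regions with an in vitro peak and -2.44 in kept regions without one. The median difference of members was above that of kept regions without an in vitro peak in 10 of 10 deciles of rank. It was above that of lost regions with an in vitro peak in 9 of 10. The lists of replicate 2 had wider peaks, and the part of the calling in this difference was not tested.

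The control scores of members also matched each other less closely than those of kept regions. Spearman's rho between the 2 control scores was 0.43 over 5461 members, 0.25 over 840 lost regions with an in vitro peak and 0.70 over 5246 kept regions without one. These are descriptions across regions, whose scores share the libraries and their depth, and members cover a narrower range of scores. The control replicate 1 peak lay wholly inside the control replicate 2 peak in 76.5% of members, against 86.2% of kept regions without an in vitro peak.

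At like rank, control peaks of members were wider in most deciles than those of kept regions without an in vitro peak. In control replicate 1 the median width of members was 613 bp in the sixth decile of rank and 721 bp in the eighth, against 449 and 541 bp in kept regions. In control replicate 2 the values were 1175 and 1194 bp against 1026.5 and 1123 bp. Members were wider in 9 of 10 deciles in control replicate 1 and in 7 of 10 in control replicate 2. In the highest decile, with 29 members, the order was reversed in both lists (697 against 719 bp, and 1218 against 1365.5 bp). Members were also wider than lost regions with an in vitro peak, in 9 of 10 and 8 of 10 deciles. Width above that of kept regions was not particular to members. In the eighth decile of control replicate 1, the median was 573 bp in lost regions with an in vitro peak (24 regions). It was 576 bp in partial regions without one. In the sixth decile these values were 421 and 476 bp.

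The difference in width between members and kept regions without an in vitro peak depended on the ranking and the list. With regions ranked by the score in control replicate 2 alone, members were wider in 10 of 10 deciles for control replicate 1 peaks and in 9 of 10 for control replicate 2 peaks. With ranks from control replicate 1 alone, members were wider in 10 of 10 deciles for control replicate 1 peaks but only in 4 of 10 for control replicate 2 peaks. Taken without regard to rank, members had narrower peaks than kept regions, 474 against 506 bp in control replicate 1 and 960 against 1084 bp in control replicate 2.

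**Figure D3:**
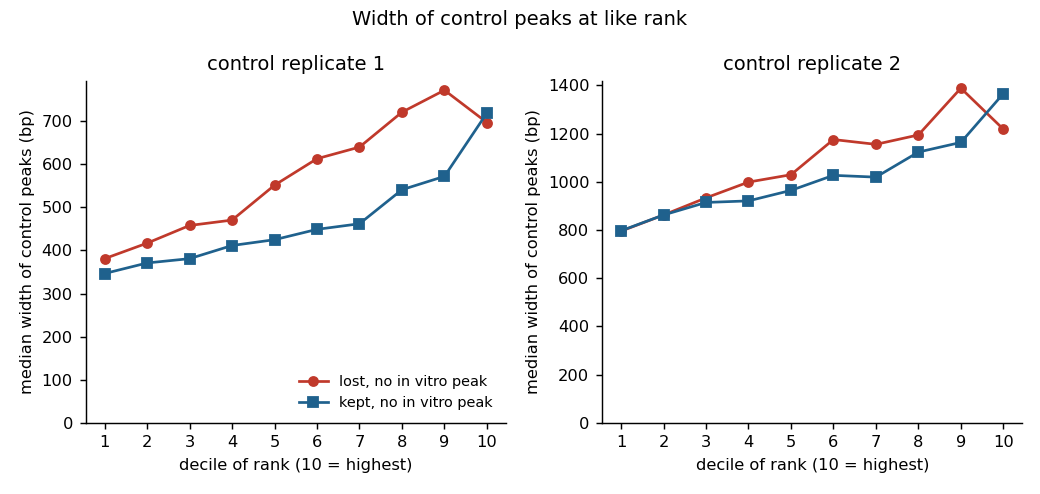
Median width of control peaks (y axis, bp) by decile of rank (x axis, 10 the highest), for members (red circles) and kept regions without an in vitro peak (blue squares), in control replicate 1 (left) and control replicate 2 (right). The red line lies above the blue one from the third to the ninth decile in both panels and below it in the highest.

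Members had a PU.1 site still detected under the hairpin within 10 kb about as often as control regions in general. Some shPU.1 peak was within 1 kb of the control peaks of 506 members (9.27%, 8.51 to 10.1), and within 10 kb of 49.1%. The 1 kb share was 4.57% without shPU.1 replicate 2, 4.47% at a minimum score of 100 in every list and 18.7% with peaks trimmed to their central 200 bp. The nearest other region with a shPU.1 peak was within 10 kb of 49.2% of members (47.9 to 50.5), 50.2% of all control regions (49.5 to 50.8), 48.0% of lost regions with an in vitro peak (44.6 to 51.4) and 53.2% of kept regions without one (51.8 to 54.5). The interval of members overlapped those of all control regions and of lost regions with an in vitro peak. The median distance to that region was 10344 bp for members (quartiles 3756 and 24833 bp) and 9956 bp for all control regions.

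A kept neighbour was about as common beside members as beside all control regions. A kept region lay within 10 kb of 21.9% of members (20.8 to 23.1), 22.7% of all control regions (22.2 to 23.3), 22.7% of lost regions with an in vitro peak (19.9 to 25.7) and 25.4% of kept regions without one (24.2 to 26.6). Among members the share had no order by rank, with 23.8% in the lowest decile, 22.6% in the fifth, 15.9% in the seventh and 24.8% in the ninth. Among kept regions without an in vitro peak it was 19.8%, 19.9%, 26.7% and 29.02% in the same deciles. Without shPU.1 replicate 1, which raises the number of kept regions, the share of members was 33.5%. At a minimum score of 100 in every list it was 10.4%.

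Most members had no other member within 10 kb. Another member was within 10 kb of 16.8% of members (15.8 to 17.8), 15.0% of all control regions (14.6 to 15.5), 15.4% of kept regions without an in vitro peak (14.4 to 16.4) and 13.7% of lost regions with one (11.4 to 16.2). Any other control region was within 10 kb of 46.2% of members (44.9 to 47.6), 44.9% of all control regions (44.2 to 45.6) and 47.8% of kept regions without an in vitro peak.

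The rule removed members that overlap an in vitro peak, and the remaining distances are given beside those of kept regions without one. An in vitro peak lay within 1 kb of 5.18% of members (4.61 to 5.80) and of 4.61% of kept regions without an in vitro peak (4.06 to 5.22). At a minimum score of 100 in every list the share of members was 2.42%. Within 5 kb the shares were 23.1% (21.9 to 24.2) and 25.05% (23.9 to 26.2), and within 10 kb they were 40.0% (38.7 to 41.3) and 43.2% (41.9 to 44.6). The median distance was 13672 bp for members and 12339.5 bp for those kept regions. Widening every in vitro peak by 500 bp on each side took the member share only from 25.2% to 24.6% (5323 regions).

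The share of members was higher in windows with 20 or more control regions than in those with fewer. Windows of 1 Mb were grouped by how many control regions they held. This count includes the members themselves and rests on the control peaks that the rule used, so the shares are a description. In windows with 1 to 4 control regions, 23.5% of regions were members (21.2 to 25.8). The share was 22.1% with 5 to 9, 23.7% with 10 to 19, 26.9% (25.6 to 28.1) with 20 to 29 and 29.1% (27.6 to 30.5) with 30 or more. Median rank rose over the same groups from 59.5 in the sparsest windows to 63.8 in the densest, and higher rank went with fewer members. With the member share of each decile of rank over all control regions, 25.8% would be members in the sparsest windows and 24.1% in the densest. This is a description, and the part of rank in these shares was not tested.

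The share of kept regions and of in vitro peaks moved the other way. Members are by rule neither kept nor with an in vitro peak, so part of this is fixed by the rule. Kept regions made up 41.5% of control regions in the sparsest windows and 36.6% in the densest, and in vitro peaks were present in 31.6% and 22.4%. Kept regions without an in vitro peak made up 22.7% and 24.3%, and lost regions with one 3.60% and 3.92%. The share of members in windows of 20 or more control regions exceeded that in windows of under 5 by 4.36 percentage points. It was 1.29 points without control replicate 2 and 0.675 points when each in vivo list was reduced to its best peaks, as many as the shortest list holds.

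**Figure D4:**
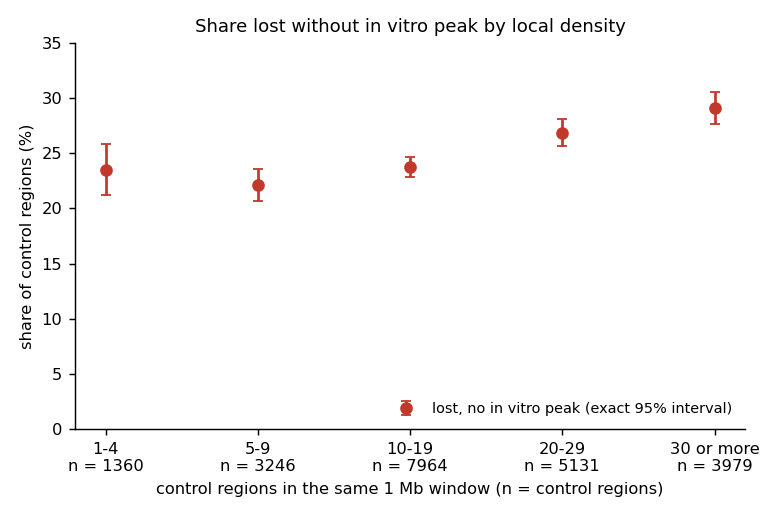
Share of control regions that are members (y axis, %) by the number of control regions in the same 1 Mb window (x axis), with exact 95% intervals. The points lie between 22.1% and 23.7% in the 3 sparser groups and at 26.9% and 29.1% in the 2 denser ones.

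A few windows stood at the upper end. Chromosome 10 from 80000001 to 81000000 held 32 members among 63 control regions, and the window before it, from 79000001, held 25 among 46. Together these made 52.3% members (42.5 to 61.9), against 27.5% (26.6 to 28.5) in all other windows with 20 or more control regions. Of the 10 highest-ranked members, 2 lay in this stretch. The next windows were on chromosome 19, from 5000001, with 24 members of 48, on chromosome 7, from 52000001, with 21 of 38, and on chromosome 8, from 73000001, with 19 of 41. On chromosome 4, from 147000001, 10 of 12 control regions were members and 1 was kept. Members made up at least 50% of control regions in 34 of 898 windows with 10 or more control regions. These windows were chosen after their values were seen and are given without a test.

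Shares by chromosome ran from 20.4% on chromosome 13 (17.8 to 23.2) to 28.1% on chromosome 7 (25.8 to 30.6) among autosomes. Chromosome 1 (21.0%) and chromosome 14 (21.3%) were also low, and chromosome 5 (27.9%), chromosome 19 (27.6%) and chromosome 15 (27.3%) were high. The intervals of chromosomes 1, 13 and 14 lay below the overall share, and those of chromosomes 5 and 7 above it. In vitro peaks were present in 30.4%, 32.7% and 30.4% of control regions on chromosomes 1, 13 and 14, against 26.2% and 25.8% on chromosomes 5 and 7. The shares lost were 25.3%, 24.9% and 26.3% on the former and 31.7% and 31.5% on the latter. Both conditions are part of the rule, so these shares are tied to the member share. Other chromosomes did not follow this pattern: chromosome 10 had in vitro peaks in 30.0% of its control regions and 30.4% lost, and chromosome 8 had 22.5% and 28.1%, with 25.1% members.

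Chromosome X had the highest share of members. There, 118 of 334 control regions were members (35.3%, 30.2 to 40.7), against 25.04% of autosomal ones (24.5 to 25.6). Control regions on X also ranked lower, with a median of 52.8 against 61.6. With the autosomal member share in each decile of rank, X would hold 98.5 members (29.5%), against the 118 counted. This is a description, and the part of rank in the share on X was not tested. Of lost regions on X, 93.7% (87.9 to 97.2) lacked an in vitro peak, against 86.5% (85.6 to 87.4) on autosomes. In vitro peaks were found in 17.4% of all control regions on X and in 27.8% of autosomal ones. Chromosome Y held 7 control regions and no member. The labels used here do not give the sex of the mice.

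**Figure D5:**
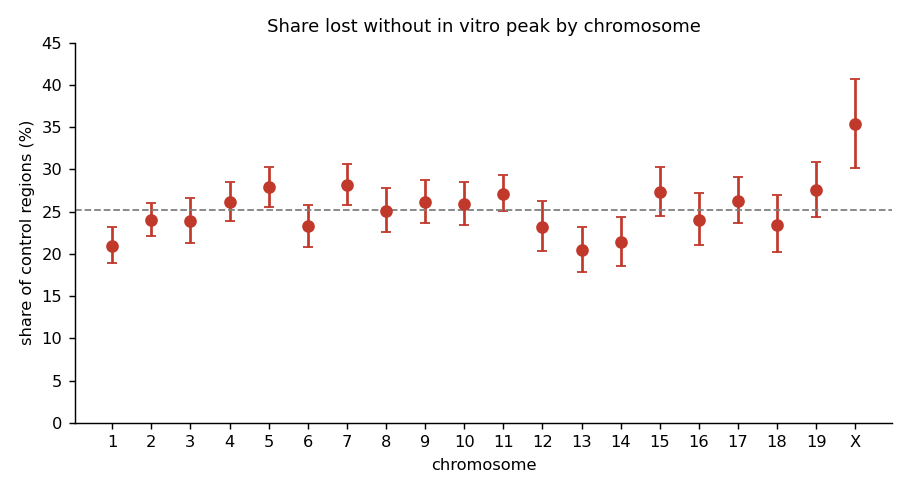
Share of control regions that are members (y axis, %) on each autosome and X (x axis), with exact 95% intervals; the dashed line is the share over all control regions, 25.2%. Chromosomes 1, 13 and 14 lie below the line with their whole interval, and chromosomes 5, 7 and X above it.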

How the data were processed

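PU.1 ChIP was sequenced in macrophages with the control vector or the shPU.1 hairpin (2 libraries each) and on chromatin assembled in vitro (1 pair). Another 9 samples, of micrococcal nuclease digests, took no part. The submitters' processing notes name the aligner Bowtie 0.12.7, the build mm9 and the peak caller MACS 1.4, and no source used here gives their settings. The deposited files are BED lists with a peak score. Apart from the raw values printed, scores were only ranked within their own list or held against a minimum. In vivo peaks were called per library against an input, and in vitro peaks on the IgG-depleted library against the PU.1-depleted one, per the deposited file names.

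Peaks were merged, classed and measured with Python 3.11.15, numpy 2.4.6, pandas 2.3.3 and scipy 1.17.1. Distances are gaps between edges, taken from the span of the control peaks. Shares carry exact (Clopper-Pearson) 95% intervals. With 2 libraries against 2 no exact two-sided permutation test can go below p = 0.33, so no test between groups was run. On synthetic lists with 3000 positions the code recovered 501 of 501 members. Members, classes and measures were chosen with earlier results of these data known. Named regions are the 10 highest and 5 lowest members by rank, those nearest to a border of the rule, and those just outside it. Motifs, GC content, transcription starts and gene lists would need the genome of that build and were left out.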

Additional observations from a re-analysis of the deposited data

How the results depend on the processing

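The limits are the unknown depth, 2 libraries a group and lists of unequal length. The member share of control regions, 25.2%, ran from 28.1% to 45.7% with 1 library left out, the highest without shPU.1 replicate 2; fewer lists then have to agree. At a minimum score of 100 it was 28.8%, with peaks trimmed to the central 200 bp 28.3%, with equal list lengths 17.1% (17.05%), and with in vitro peaks widened by 500 bp 24.6% (24.55%). The share of members with a shPU.1 peak within 1 kb (9.27%) ran from 4.57% to 9.27% with 1 library left out, the lowest without shPU.1 replicate 2. It was 4.47% at a minimum score of 100, 18.7% with trimmed peaks and 5.67% with equal lengths. The share with an in vitro peak within 1 kb (5.18%) was 2.42% at that score and 4.08% with equal lengths. The share with a kept region within 10 kb (21.9%) ran from 20.9% to 33.5% with 1 library left out, the highest without shPU.1 replicate 1. It was 10.4% at that score, 15.1% with trimmed peaks and 14.6% with equal lengths. Of regions chosen in replicate number 1 that also had a peak in control replicate 2, 55.6% were lost in number 2. The share was 50.8%, 60.7% and 59.4% under the same 3 settings. Of those chosen in number 2 that also had a peak in control replicate 1, 89.7% were lost in number 1. Under these settings the share was 97.2% (97.15%), 81.5% and 79.2% (79.15%). The cause of these changes was not tested. The difference in member share between dense and sparse windows was above 0 in 8 of 8 alternatives, from 0.675 to 6.53 percentage points. These alternatives reuse the same lists, and no interval is given for the difference. It fell from 4.36 points to 0.675 with equal list lengths and to 1.29 without control replicate 2. Whether such small values differ from 0 was not tested.

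With the replicate number as a block, the share of a control library's regions without a shPU.1 peak of the same number and without an in vitro peak averaged 45.8%, from 54.8% in number 1 and 36.8% in number 2. The labels do not tie same-numbered libraries to one mouse or one day. Over kept regions the differences between numbers had a correlation between groups of 0.105. Leaving out chromosomes X, Y and M, chosen after seeing the data as were the alternatives on dense windows, kept each share within its interval. The alternatives for motifs, GC content, transcription starts and gene lists were not run.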
